A study of Homo sapiens with 6 samples.

Results

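A set of 9 genes known as markers or regulators of intestinal crypt stem and progenitor cells were followed in DLD1, an established human colorectal adenocarcinoma cell line: ASCL2, LGR5, LGR4, EPHB2, EPHB3, SOX9, PROX1, TNFRSF19 and PROM1. They were chosen by name, with earlier results of these data known, and every probe set whose annotation named 1 of them alone was taken. This gave 19 probe sets for 8 of the 9 genes, out of 54613 probe sets on the array that are no array controls. No probe set named EPHB2 alone in the annotation used, so EPHB2 was not analysed here. The 6 arrays, Affymetrix Human Genome U133 Plus 2.0, hold 2 groups of 3. Vehicle cultures received DMSO and treated cultures 10 µM SAH-BCL9B, a hydrocarbon-stapled helical peptide modelled on the part of the cofactor BCL9 that binds beta-catenin, both for 12 h before RNA extraction. The labels call the cultures triplicates, no control peptide was among the arrays, and both groups are the same line with no genetic change between them.

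In the normal intestine, Wnt ligands and R-spondins keep beta-catenin and its TCF partners active at the crypt base, where stem cells divide. ASCL2 is a transcription factor switched on there, LGR5 and LGR4 are receptors for R-spondins, and EphB receptors hold proliferating cells in place by repulsion from ephrin-B on the cells above. Colorectal cancers that carry a disabled APC gene, as DLD1 cells do, keep this transcription active and often express crypt genes, which is why such genes are read when beta-catenin and BCL9 are targeted.

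Values are log2 expression levels of a probe set, so a difference of 1 is a doubling. The array medians ran from 6.58 to 6.62, and no detection calls were used, so whether a dim probe set measured its transcript is unknown. Probe sets differ in how brightly they report, so the levels of different genes were not ranked. Differences were tested with limma over all 54613 probe sets, with Benjamini-Hochberg adjustment and a threshold of 0.05. By that test 1363 probe sets (2.50%) were called, 749 (1.37%) lower and 614 (1.12%) higher in SAH-BCL9B, and the median log2 change of all was 0.01. The p-values measure the spread between these 3 and 3 arrays. SAH-BCL9B 2 stood apart in 1 measure of RNA quality, the difference between the 3' and 5' control probe sets of ACTB. It was 0.74 there and 1.20 to 1.38 on the other arrays. The smaller difference does not mark the RNA of SAH-BCL9B 2 as poorer. In the same difference for GAPDH, SAH-BCL9B 2 stood at 0.14, inside the range of 0.09 to 0.17 over all arrays. The 10 probe sets of the colorectal epithelial genes EPCAM, CDH1, KRT8, KRT18, KRT19, CDX1 and CDX2 averaged log2 10.77 to 10.84 in vehicle and 10.90 to 10.99 in SAH-BCL9B. The 33 probe sets of 10 genes that mark blood, endothelial, stromal and muscle cells averaged 5.10 to 5.18 and 5.11 to 5.33. Of these, 0 passed the test or had an unadjusted p under 0.05 in limma's fit.

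ASCL2 fell after SAH-BCL9B, and it was the 1 gene of the 8 with a probe set that passed the test. Of the 19 probe sets, 1 was called lower, 0 higher and 18 not called, against 1.37%, 1.12% and, for calls in either direction, 2.50% over the array. At limma's unadjusted p under 0.05 there were 6 lower and 0 higher, against 3814 (6.98%) and 4592 (8.41%) over the array. The median change was -0.14, 13 of the 19 changes were negative, and the range was -0.52 to 0.23. In 6 probe sets (31.6%) all SAH-BCL9B arrays lay below all vehicle arrays, against 9.73% over the array, and in 0 they lay above, against 12.3% (22.0% in either direction). These 6 belonged to 4 genes, ASCL2, LGR5, EPHB3 and PROM1. Probe sets of a gene read the same transcripts and are not independent of each other.

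**Figure D1:**
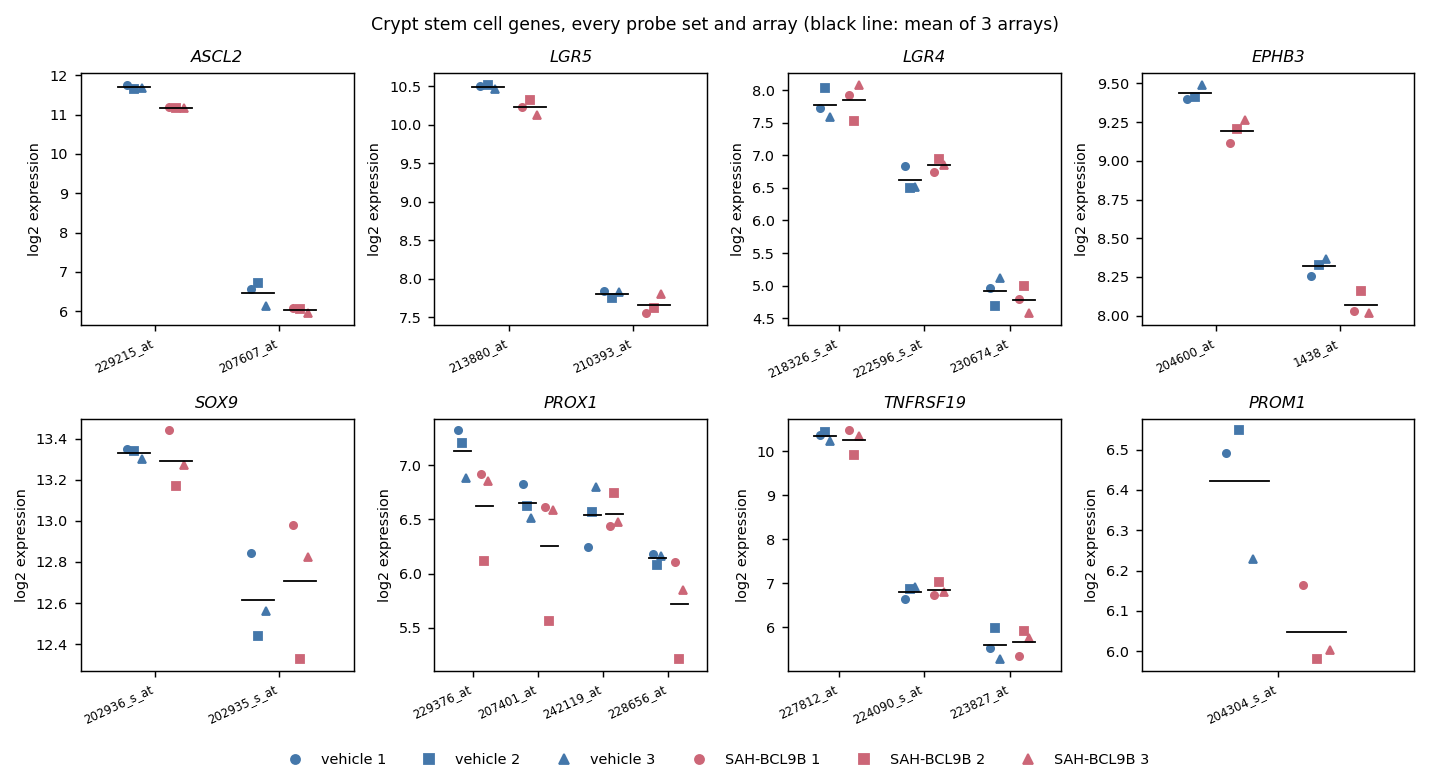
Log2 expression of the 19 probe sets of 8 crypt stem cell genes, 1 panel per gene, with a point for each array (circle, square and triangle for replicates 1, 2 and 3) and a black line at each group's mean. Vertical scales differ between panels. ASCL2 and EPHB3 are separated in both of their probe sets, and SAH-BCL9B 2 lies far below the other arrays in 3 of the 4 probe sets of PROX1.

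The 2 probe sets of ASCL2, a basic helix-loop-helix factor that maintains crypt stem cells, were separated between groups. The brighter one, 229215_at, read 11.76, 11.66 and 11.68 in vehicle 1, 2 and 3, and 11.20, 11.16 and 11.18 in SAH-BCL9B 1, 2 and 3. The SAH-BCL9B arrays lay close together, and all were below the lowest vehicle array. The group means were 11.70 ± 0.06 and 11.18 ± 0.02 (SD, n = 3), a log2 change of -0.52 ± 0.08 (SE, 95% interval -0.70 to -0.33), or 1.43-fold lower (limma adjusted p = 0.0234). The dimmer one, 207607_at, read 6.57, 6.72 and 6.12 in vehicle and 6.08, 6.06 and 5.94 in SAH-BCL9B. The groups again did not overlap, but vehicle 3 lay only just above SAH-BCL9B 1. Its change was -0.45 ± 0.15 (SE) and did not pass (limma adjusted p = 0.215). With 1 probe set per gene, as adjusted over 19775 genes, the change of 229215_at had a limma adjusted p of 0.008, and the mean of both probe sets gave -0.48 (0.0256). The call on 229215_at was lost when any array other than SAH-BCL9B 2 was left out (limma adjusted p = 0.133, 0.0914 and 0.0775 for vehicle 1, 2 and 3, 0.0891 for SAH-BCL9B 1 and 0.107 for SAH-BCL9B 3), though the change stayed between -0.54 and -0.49 without any 1 array.

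LGR5 and LGR4 are seven-pass receptors that bind R-spondins and thereby raise Wnt signalling. LGR5 marks the cycling stem cells of the crypt base, and LGR4 is found more widely along the crypt. The LGR5 probe set 213880_at read 10.50, 10.52 and 10.46 in vehicle and 10.23, 10.32 and 10.13 in SAH-BCL9B. All SAH-BCL9B arrays were below all vehicle arrays. The change was -0.27 ± 0.09 (SE, 95% interval -0.47 to -0.07) and did not pass the test (limma adjusted p = 0.181). The other LGR5 probe set, 210393_at, read 7.84, 7.75 and 7.82 in vehicle and 7.55, 7.63 and 7.81 in SAH-BCL9B. Here SAH-BCL9B 3 overlapped the vehicle arrays, and the change was -0.14 ± 0.10 (limma adjusted p = 0.579).

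LGR4 was measured by 3 probe sets, which did not share a direction. The brightest, 218326_s_at, read 7.72, 8.03 and 7.59 in vehicle and 7.93, 7.53 and 8.09 in SAH-BCL9B, with a change of 0.07 ± 0.17 (SE). The groups overlapped over their whole range. Probe set 222596_s_at read 6.83, 6.5 and 6.51 in vehicle and 6.75, 6.94 and 6.85 in SAH-BCL9B, with a change of 0.23 ± 0.12, the highest of the 19. Vehicle 1 lay among the SAH-BCL9B arrays there, and the limma adjusted p was 0.415. The dim probe set 230674_at ran from 4.69 to 5.12 in vehicle and from 4.57 to 4.99 in SAH-BCL9B.

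To compare the receptors with each other, the difference between the brightest probe sets of LGR5 and LGR4 was taken within each array. This difference was 2.78, 2.49 and 2.87 in vehicle and 2.30, 2.80 and 2.04 in SAH-BCL9B. SAH-BCL9B 2 lay among the vehicle arrays and SAH-BCL9B 1 and 3 below them. The mean difference changed by -0.34 from vehicle to SAH-BCL9B (exact two-sided permutation test, p = 0.3, 1 comparison run). With 3 arrays against 3 the smallest p possible is 0.1, so this test could not pass 0.05 and does not show whether the receptors changed alike. The value ran from -0.55 to -0.17 with each array left out. It was -0.55 without SAH-BCL9B 2, the only treated array among the vehicle arrays. Leaving that array out separates the groups by itself, so this is no separate result.

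EPHB3, a receptor tyrosine kinase for ephrin-B ligands that positions progenitor cells in the crypt, was measured by 2 probe sets with nearly the same change. Probe set 204600_at read 9.40, 9.41 and 9.49 in vehicle and 9.12, 9.21 and 9.26 in SAH-BCL9B. Probe set 1438_at read 8.26, 8.33 and 8.37 in vehicle and 8.03, 8.16 and 8.01 in SAH-BCL9B. In both, all SAH-BCL9B arrays lay below all vehicle arrays. The changes were -0.24 ± 0.08 and -0.25 ± 0.09 (SE), and neither passed the test over all probe sets (limma adjusted p = 0.218 and 0.205). Without SAH-BCL9B 2 the changes were -0.25 and -0.30.

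Promoters from RefSeq (GRCh38.p14) were at hand for 5 of the 9 genes, in 10 windows: EPHB2, EPHB3, PROM1, LGR4 and TNFRSF19. The entries of ASCL2, LGR5, SOX9 and PROX1 are missing. The 250 bases before each start site were searched for a core of the TCF/LEF binding motif (CTTTGA, or TCAAAG on the other strand) and for an E-box of the type that basic helix-loop-helix dimers can bind (CAGCTG, the same on both strands). These motifs share no overlap. Over all 35116 windows of that length, 11.2% held the former and 14.0% the latter. The TCF/LEF core was in 1 of the 4 PROM1 windows and in none of the others. The E-box was in the EPHB3 window, 138 bases before the start site, and in both TNFRSF19 windows, 147 and 197 bases before it. The EPHB3 window and the TNFRSF19 window with 147 bases are shown, with the E-box in capitals. They were picked because the E-box stands at a like distance in a gene whose groups did not overlap and in 1 whose groups did. Whether the E-box bears on the changes was not tested. EPHB3 is chr3:184561535-184561784 on the plus strand and TNFRSF19 is chr13:23579110-23579359 on the plus strand.
EPHB3: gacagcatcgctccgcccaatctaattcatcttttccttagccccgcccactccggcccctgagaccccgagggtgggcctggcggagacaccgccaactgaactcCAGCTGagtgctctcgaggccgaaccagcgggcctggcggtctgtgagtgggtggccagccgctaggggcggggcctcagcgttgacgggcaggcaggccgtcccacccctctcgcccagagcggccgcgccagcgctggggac
TNFRSF19: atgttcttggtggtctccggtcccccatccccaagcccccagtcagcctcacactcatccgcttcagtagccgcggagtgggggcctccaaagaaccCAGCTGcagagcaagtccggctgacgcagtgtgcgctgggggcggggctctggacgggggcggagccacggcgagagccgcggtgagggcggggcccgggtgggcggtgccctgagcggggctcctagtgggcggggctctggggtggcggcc

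TNFRSF19, also called TROY, is a receptor of the tumour necrosis factor family found on crypt base cells. Its brightest probe set, 227812_at, read 10.38, 10.44 and 10.24 in vehicle and 10.48, 9.92 and 10.35 in SAH-BCL9B. SAH-BCL9B 2 was the lowest array and SAH-BCL9B 1 the highest, so the groups overlapped. The change was -0.10 ± 0.15 (SE, 95% interval -0.45 to 0.25), and it was 0.06 without SAH-BCL9B 2. In the other probe sets the changes were 0.05 and 0.08, from 6.64 to 6.91 in vehicle and 6.72 to 7.03 in SAH-BCL9B for 224090_s_at, and from 5.27 to 5.98 and 5.35 to 5.93 for 223827_at. Without SAH-BCL9B 2 they were -0.04 and -0.05 (223827_at), so the sign of all 3 TNFRSF19 changes turned with that array.

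PROM1 encodes prominin-1 (CD133), a membrane glycoprotein of crypt progenitors. Its 1 probe set, 204304_s_at, read 6.49, 6.55 and 6.23 in vehicle and 6.16, 5.98 and 6.0 in SAH-BCL9B. All SAH-BCL9B arrays were below all vehicle arrays, with vehicle 3 closest to them. The change was -0.37 ± 0.11 (SE, 95% interval -0.63 to -0.11) and did not pass the test (limma adjusted p = 0.151). Both group means, 6.42 ± 0.17 and 6.05 ± 0.10 (SD, n = 3), lay below the array medians. Whether this level affected the size of the change was not tested.

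The transcription factor SOX9, which is needed for Paneth cells and marks progenitors, was bright in every array. Its probe set 202936_s_at read 13.35, 13.34 and 13.30 in vehicle and 13.44, 13.17 and 13.27 in SAH-BCL9B, a change of -0.04 ± 0.10 (SE, 95% interval -0.26 to 0.18). The vehicle arrays lay inside the span of the SAH-BCL9B arrays. The other, 202935_s_at, read 12.84, 12.44 and 12.56 in vehicle and 12.98, 12.33 and 12.82 in SAH-BCL9B, a change of 0.09 ± 0.18. The interval of the first excludes a fall as large as that of ASCL2 in 229215_at, while the test does not show that SOX9 was unaffected.

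PROX1, a homeobox factor expressed in colorectal tumours with active beta-catenin, depended on 1 array. Probe set 229376_at read 7.32, 7.20 and 6.88 in vehicle and 6.91, 6.11 and 6.85 in SAH-BCL9B, a change of -0.51 ± 0.22 (SE, limma adjusted p = 0.336). Probe set 207401_at read 6.82, 6.62 and 6.51 in vehicle and 6.61, 5.57 and 6.58 in SAH-BCL9B, and 228656_at read 6.18, 6.08 and 6.16 and 6.11, 5.21 and 5.85. In these 3 probe sets SAH-BCL9B 2 was the lowest array, and the changes were -0.51, -0.40 and -0.42. Without it they were -0.25, -0.05 and -0.16. The fourth, 242119_at, had a change of 0.02, with SAH-BCL9B 2 at 6.75 above the other treated arrays at 6.44 and 6.48. Over the 19 probe sets, SAH-BCL9B 2 was the lowest array in 9, SAH-BCL9B 3 in 4, SAH-BCL9B 1 in 2 and a vehicle array in the rest. It is also the array with the low ACTB difference. With that difference as a covariate in limma's fit, the changes of 229376_at, 207401_at and 228656_at were -0.21, -0.02 and -0.17. The covariate mainly sets SAH-BCL9B 2 apart, as leaving that array out does, so the fit is not a separate check. Whether RNA quality had a part was not tested.

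**Figure D2:**
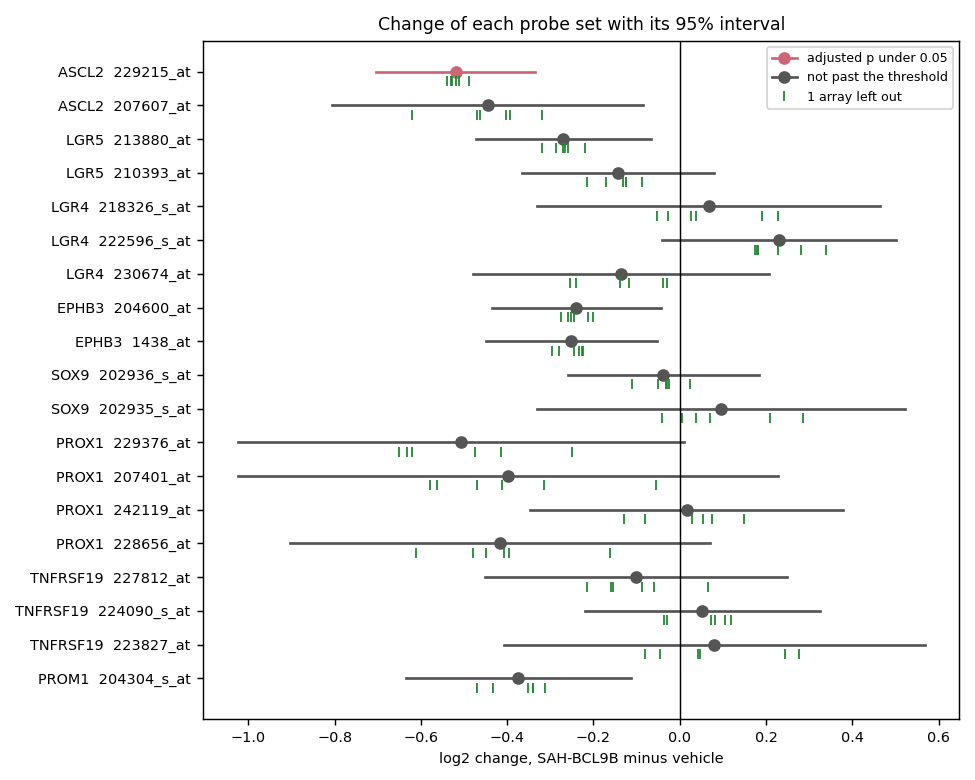
Log2 change (SAH-BCL9B minus vehicle) of each of the 19 probe sets, with limma's 95% interval as a line and, beneath it in green, the 6 changes obtained with 1 array left out. The interval of ASCL2 229215_at runs from -0.70 to -0.33 and its green marks stay close together, while those of PROX1 spread widely.

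Of the binding partners and ligands of these genes, TCF4 fell most and in nearly all of its probe sets. TCF4, also called E2-2, is 1 of the E proteins with which factors such as ASCL2 pair to bind E-boxes, and is not the beta-catenin partner TCF7L2, which shares the name in older usage. Its probe set 212386_at read 8.82, 9.04 and 8.74 in vehicle and 7.47, 7.05 and 7.11 in SAH-BCL9B. The groups were more than 1 log2 unit apart at their closest. The means were 8.87 ± 0.15 and 7.21 ± 0.23 (SD, n = 3), a change of -1.65 ± 0.14 (SE), or 3.15-fold lower (limma adjusted p = 0.00431). The call on 212386_at held in all 17 alternatives run (highest limma adjusted p = 0.0472). Altogether 7 of the 8 TCF4 probe sets were called lower, with changes from -1.65 to -0.84, and in each of the 7 the groups did not overlap. Apart from 212386_at, each lost its call in some alternatives, from 2 of 15 for 213891_s_at to 7 of 15 for 212385_at. The highest limma adjusted p among them was 0.159. The eighth, 228837_at, was dim, at 4.41 in vehicle and 4.48 in SAH-BCL9B. The other E proteins were not called in any probe set: the changes of TCF3 ran from -0.11 to 0.26 over 14 probe sets and those of TCF12 from -0.41 to 0.15 over 4.

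NDP encodes norrin, a secreted ligand that binds LGR4 as well as the Wnt receptor FZD4, and it fell too. Its probe set 206022_at read 8.76, 8.80 and 8.74 in vehicle and 8.01, 7.59 and 8.06 in SAH-BCL9B. The vehicle arrays lay close together and all treated arrays were well below them. The change was -0.88 ± 0.13 (SE), or 1.83-fold lower (limma adjusted p = 0.0234). The call was lost when any array other than SAH-BCL9B 2 was left out (limma adjusted p = 0.115, 0.101 and 0.0812 for vehicle 1, 2 and 3, 0.0729 for SAH-BCL9B 1 and 0.0765 for SAH-BCL9B 3), with changes from -0.96 to -0.73. The 4 R-spondin genes, RSPO1 to RSPO4, had changes of -0.08 to 0.10 over 5 probe sets, none called. Among the ephrin-B genes, whose products bind EPHB3, EFNB2 had the lowest p. Its probe set 202668_at read 12.27, 12.24 and 12.24 in vehicle and 12.04, 11.87 and 11.93 in SAH-BCL9B, so the groups did not overlap, and the change of -0.30 ± 0.08 did not pass (limma adjusted p = 0.124). Over the whole list of 11 ligands and partners, 8 of 37 probe sets (21.6%) were called lower and 0 higher. Over the array the shares were 1.37% and 1.12%. All 8 were of TCF4 and NDP, and the median change of the list was -0.05. The count of lower calls was 2, 1, 3, 4, 8 and 1 without vehicle 1, 2 and 3 and without SAH-BCL9B 1, 2 and 3.

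**Figure D3:**
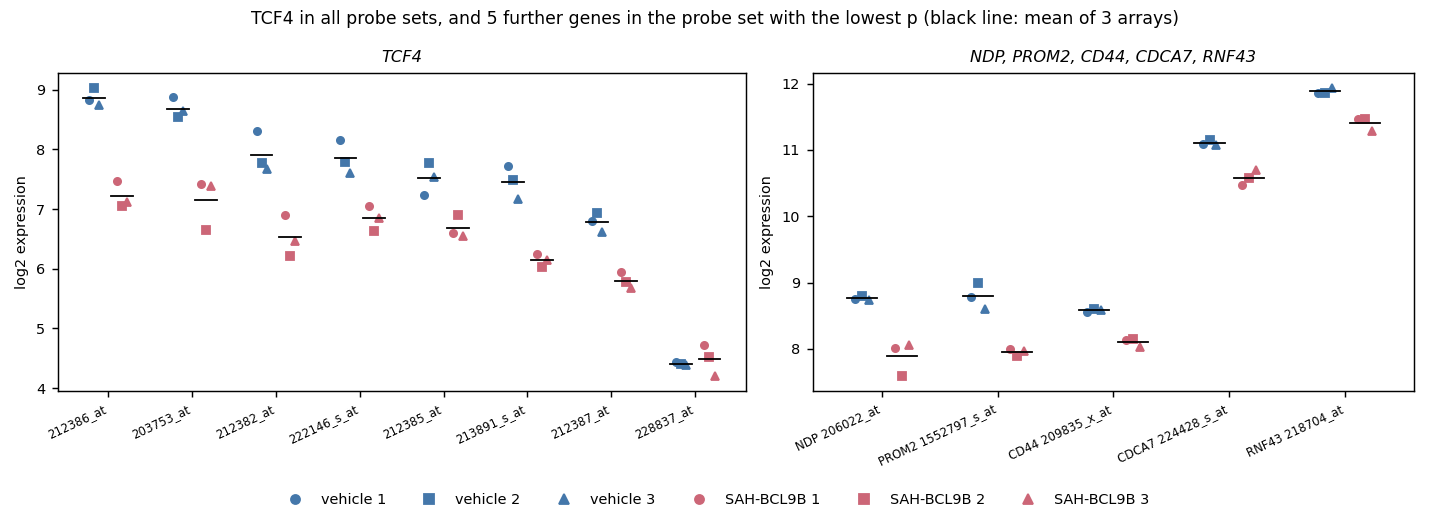
Log2 expression by array, as circles, squares and triangles for replicates 1, 2 and 3, of the 8 probe sets of TCF4 (left) and of 5 further genes in the probe set with the lowest p (right). Black lines are means of 3 arrays. In 7 of the 8 TCF4 probe sets every SAH-BCL9B array lies below every vehicle array, against 9.73% of probe sets over the array. The same holds for the 5 probe sets on the right, which were picked among those called lower, so it is no separate result. Some probe sets of PROM2, CD44 and CDCA7 that are not shown had overlapping groups.

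The paralogs of the crypt genes gave 1 call. PROM2, the relative of PROM1, was called lower in 1552797_s_at, which read 8.78, 9.0 and 8.61 in vehicle and 8.0, 7.90 and 7.96 in SAH-BCL9B. The treated arrays lay close together, below all vehicle arrays. The change was -0.84 ± 0.11 (SE, limma adjusted p = 0.0162). The other 4 PROM2 probe sets had changes of -0.07 to 0.14, and the mean of all 5 gave -0.16 (limma adjusted p = 0.288). Leaving out vehicle 1 or 2 also ended the call (limma adjusted p = 0.0959 and 0.0618), as did leaving out SAH-BCL9B 1 or 3 (0.0679 and 0.0907). LGR6, the third R-spondin receptor, had a change of 0.08 and EPHB4 had changes of -0.06 and -0.14, all not called. Of the 16 probe sets of 8 measured paralogs, 1 (6.25%) was lower and 0 higher, against 1.37% and 1.12% over the array. Their median change was 0.02.

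Other crypt stem and progenitor genes were lower in part. Of 18 listed genes 17 were measured, in 56 probe sets, with a median change of -0.10. In limma's test 6 (10.7%) were called lower and 0 higher, against 1.37% and 1.12% over the array. At an unadjusted p under 0.05 there were 15 lower and 1 higher, against 6.98% and 8.41% over the array. The calls were 4 of the 13 probe sets of the adhesion receptor gene CD44, 1 of the 2 of CDCA7 and the single one of RNF43, a ubiquitin ligase that removes Wnt receptors. CDCA7, a MYC-responsive gene of dividing cells, read 11.09, 11.15 and 11.08 in vehicle and 10.47, 10.57 and 10.70 in SAH-BCL9B in 224428_s_at. That is a change of -0.52 ± 0.09 (SE, limma adjusted p = 0.0333), with no overlap. Its other probe set had a change of -0.02, and the mean of both did not pass (limma adjusted p = 0.354). RNF43 read 11.86, 11.85 and 11.94 in vehicle and 11.46, 11.46 and 11.29 in SAH-BCL9B, a change of -0.48 ± 0.09 (limma adjusted p = 0.0389). In CD44 the called changes ran from -0.78 in 217523_at to -0.48 in 209835_x_at. The other 9 probe sets of CD44 ran from -0.40 to 0.21, and the mean of all 13 gave -0.27 and did not pass (limma adjusted p = 0.0618).

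The rest of that list did not pass. AXIN2, a feedback gene of the pathway, had changes of -0.40 to -0.25 in 4 probe sets, in each of which the groups did not overlap (lowest limma adjusted p = 0.086). SOX4 had negative changes in all 6 of its probe sets, from -0.29 to -0.08. OLFM4, a defining gene of human crypt base cells, was near the floor of the array, at 3.90 in vehicle and 3.88 in SAH-BCL9B, and SMOC2 read 6.06 and 6.14 in its brighter probe set. The adhesion gene ALCAM went the other way, with changes of 0.25 to 0.33 in 3 probe sets that did not pass, and no overlap in 201952_at. In 19 of the 56 probe sets (33.9%) all treated arrays lay below all vehicle arrays, 9 of them of CD44 and 4 of AXIN2, against 9.73% over the array. The count of lower calls was 4 without SAH-BCL9B 2, 1 without vehicle 3, and 0 when any other array was left out.

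Genes of differentiated intestinal cells were read for comparison, since crypt cells lose stem cell genes as they mature. Of 21 listed genes 20 were measured in 29 probe sets. None was called in either direction in limma's test, against 1.37% lower and 1.12% higher over the array. At an unadjusted p under 0.05, 3 were lower and 0 higher, against 6.98% and 8.41% over the array. The median change was -0.06, with a range of -0.31 to 0.27. KRT20, a keratin of mature colonocytes, read 11.22 in vehicle and 11.27 in SAH-BCL9B. The goblet cell gene TFF3 read 9.71 and 9.45, and the goblet cell mucin gene MUC2 5.86 and 5.87. In 6 of the 29 probe sets (20.7%) the treated arrays lay below all vehicle arrays, against 9.73% over the array. In 2 (6.9%) they lay above, against 12.3%. The difference between these lists and the crypt genes was not tested. The mean level over the probe sets of the epithelial genes, given above, was higher in SAH-BCL9B, and its part in these results was not tested. Of their 10 probe sets only that of KRT8 was called, higher by 0.50, while 1.12% were called higher over the array. CDX2, an intestinal identity factor, had changes of -0.27, with no overlap, and -0.05, and those of CDH1 and CDX1 ran from 0.05 to 0.06.

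**Figure D4:**
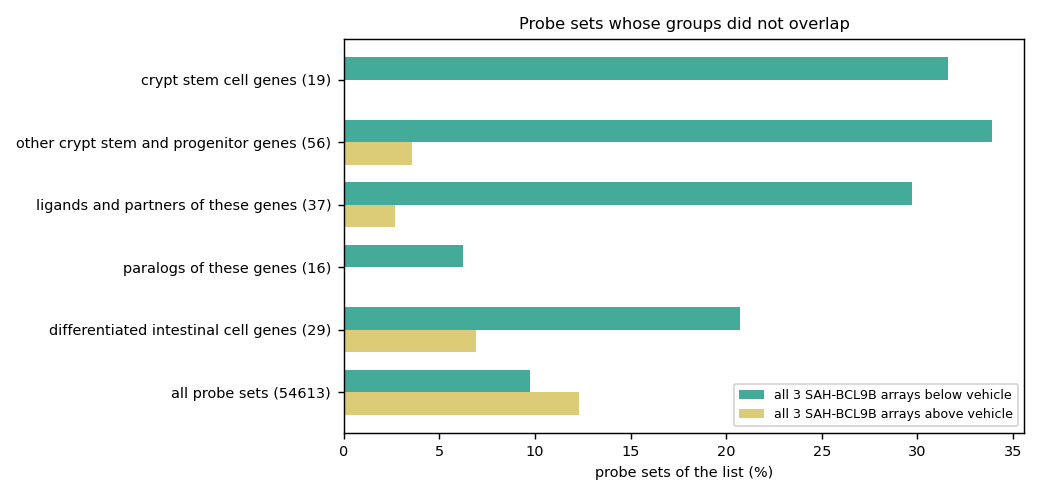
Share of probe sets, in percent, in which all 3 SAH-BCL9B arrays lay below (green) or above (yellow) all 3 vehicle arrays, for each gene list with its number of probe sets and for all probe sets. The crypt stem cell genes stand at 31.6% below and 0% above, against 9.73% and 12.3% over the array. All lists were chosen with earlier results of these data known, so the shares are a description.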

How the data were processed

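Expression on the 6 arrays was deposited by the authors as log2 values for 54675 probe sets. Per the submitters' processing notes RMA and affy were used (versions not given in the sources used here). Because RMA sets all arrays to a common distribution, it removes any shift common to nearly all transcripts, and it compresses differences between dim probe sets. Probe sets were named through GEO's platform annotation: 62 were array controls, 41091 named 1 gene, 1801 several and 11721 none.

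All 54613 probe sets other than controls entered 1 fit, lmFit and eBayes of limma 3.58.1 (R 4.3.3), without covariates or a filter on low values. The prior had 3.60 degrees of freedom, changes are SAH-BCL9B minus vehicle, and p-values were adjusted by Benjamini-Hochberg with a threshold of 0.05. Errors are SDs over 3 arrays or limma's standard errors, and intervals are 95% intervals from the moderated fit. Plots used matplotlib 3.10.9 in Python 3.11.15. The fit was tested on simulated data.

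The genes and lists were chosen with earlier results of these data known, so no count supports the choice. The rule named all 9 genes, in other lists genes with a called probe set (at most 6), and the 3 genes nearest in profile to the crypt probe set with the lowest p. Genes named beside these (AXIN2, SOX4, OLFM4, SMOC2, ALCAM, EFNB2, TCF3, TCF12, the R-spondins, LGR6, EPHB4, KRT20, TFF3, MUC2, KRT18, KRT19, CDX1, CDX2 and CDH1) were chosen after their values were seen. BMI1 and NEUROD1 had no probe set naming them alone. A planned comparison of EPHB2 with EPHB3 was not run. Same-numbered arrays did not all deviate together (correlations of 0.41, 0.06 and -0.31 for numbers 1, 2 and 3), and the numbers were not treated as pairs. Between unlike numbers the correlations ran from -0.48 for vehicle 1 with SAH-BCL9B 2 to 0.38 for vehicle 3 with SAH-BCL9B 2. With 3 arrays a group these correlations cannot settle whether the arrays were paired. Results with a replicate block are given below.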

Additional observations from a re-analysis of the deposited data

How the results depend on the processing

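Alternatives were a replicate block, a filter on low values, 1 probe set or the mean of all probe sets per gene, centring each array on its median, quantile normalization once more, eBayes with a trend and robust prior, array weights, the ACTB difference as a covariate, vehicle 3 and SAH-BCL9B 2 left out together, each array left out and, added after seeing the data, adjustment over probe sets naming 1 gene. Over the 19 probe sets, 264 values kept direction and side of the threshold, 7 lost the call, 1 gained it and 22 turned sign. All 7 losses were of ASCL2 229215_at, in 7 of its 17 alternatives, since the other 18 probe sets had no call to lose. Without vehicle 3 and SAH-BCL9B 2, ASCL2 207607_at gained a call (limma adjusted p = 0.0493) and 229215_at lost its call (limma adjusted p = 0.0604). The causes were not tested.

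With the replicate block, the array's calls dropped to 171. Among ligands and partners, NDP (limma adjusted p = 0.0814) and TCF4 212385_at (0.0624) lost their calls, and the other TCF4 calls held. The number lower was then 0 for the crypt stem cell genes (ASCL2 229215_at limma adjusted p = 0.103), 0 for the other crypt genes and 0 for the paralogs. Averaging each gene's probe sets made it 1 for the other crypt genes, 2 for ligands and partners and 0 for paralogs, and with 1 probe set per gene 2 for ligands and partners, counts of genes rather than probe sets. With the ACTB covariate it was 2 for the other crypt genes and 1 for differentiated cell genes, and without vehicle 3 and SAH-BCL9B 2 it was 1 for the other crypt genes. The number higher among the other crypt genes was 1 with the filter, 1 probe set per gene, the variance trend or those 2 arrays left out. With each array left out, the number lower ran from 0 to 1 for the crypt stem cell genes, 0 to 4 for the other crypt genes, 1 to 8 for ligands and partners and 0 to 1 for paralogs, and the number higher among the other crypt genes from 0 to 2. Array calls over all probe sets ran from 97 without vehicle 1 to 1478 without SAH-BCL9B 2.

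Signs turned in probe sets with changes near 0. With each array left out the change ran from -0.052 to 0.23 for LGR4 218326_s_at, -0.13 to 0.15 for PROX1 242119_at, -0.11 to 0.0243 for SOX9 202936_s_at, -0.0401 to 0.29 for SOX9 202935_s_at, -0.22 to 0.0644 for TNFRSF19 227812_at, -0.0358 to 0.12 for TNFRSF19 224090_s_at and -0.0807 to 0.28 for TNFRSF19 223827_at. With the ACTB covariate it was -0.13 for PROX1 242119_at, 0.0192 for SOX9 202936_s_at, and 0.0739, -0.0563 and -0.0062 for TNFRSF19 227812_at, 224090_s_at and 223827_at. Without vehicle 3 and SAH-BCL9B 2 it was 0.0107 for SOX9 202936_s_at, 0.0077 for TNFRSF19 227812_at and -0.21 for 223827_at. The mean of all probe sets gave 0.0285 for SOX9 and 0.0102 for TNFRSF19, and array weights gave -0.009 for TNFRSF19 223827_at.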

Other observations

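KRT8, a keratin gene of simple epithelium, rose in SAH-BCL9B, and it was chosen after its values were seen. It read 13.76, 13.74 and 13.63 in vehicle and 14.21, 14.26 and 14.15 in SAH-BCL9B, and its change of 0.50 ± 0.08 (SE) passed limma's test (adjusted p = 0.0305). The call was lost with the replicate block (0.108) and when any array other than SAH-BCL9B 2 was left out (limma adjusted p from 0.103 to 0.133). Its partner KRT18 had a change of 0.28 ± 0.08 and KRT19, in its brighter probe set, 0.31 ± 0.08, with no overlap and no call (limma adjusted p = 0.132 and 0.116), while KRT20 had a change of 0.06 with overlapping groups (0.834). The KRT8 and KRT18 probe sets carry the suffix x, used for probe sets that can read related sequences, so near-identical copies cannot be told apart.

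The 3 named genes whose profile over the 6 arrays lay nearest to that of ASCL2 229215_at were TBL1X, PRRT3-AS1 and PAN2. The root mean square difference, after subtracting each vehicle mean, was 0.0265, 0.0331 and 0.0343 log2 units. Their changes were -0.51, -0.54 and -0.50 (limma adjusted p = 0.0251, 0.0234 and 0.026), and each call was lost when any array other than SAH-BCL9B 2 was left out. Genes picked for nearness to ASCL2 must have changes near its own, so these changes and p-values are no separate result. The mean of all TBL1X probe sets gave -0.38 and did not pass (limma adjusted p = 0.142). Likeness over 6 arrays is a description.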
